A study of Mus musculus with 2 samples.

Results

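The cornified envelope genes described here are 6 of the 19394 genes measured: Crct1, Sbsn, Lor, Ivl, Lce1f and Sprr1a, which encode proteins of the cornified envelope and its surface layer. They were taken by name, and all 6 had a row in the count matrix. The cells were renal progenitors of the Pax2 lineage, cultured from mouse kidney and profiled by droplet single-cell RNA sequencing. A single library came from cells given 0.2 µM panobinostat, an inhibitor of histone deacetylases, for 48 h, and 1 more from cells given DMSO vehicle for the same time. Both groups were C57Bl/6 mice of 9 weeks carrying 3 transgenes. Pax2.rtTA puts a transactivator under the Pax2 promoter, TetO.Cre makes Cre where that transactivator is active, and R26.mT/mG turns from tdTomato to GFP after Cre. Both were GFP-sorted cells from glomerular outgrowths of 5 days, starved for 16 h before treatment, so the results concern cultured cells and not kidney tissue. The labels give 2 mice and do not say which mouse gave which cells. With 1 library a group no spread between samples could be measured and no test of treatment exists, and treatment and library cannot be told apart. Every interval below is a 95% interval for counting error only.

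The cornified envelope is the cross-linked protein shell that replaces the plasma membrane of a dying keratinocyte in skin and other stratified epithelia. Transglutaminases join precursor proteins such as involucrin, loricrin, the small proline-rich proteins and the late cornified envelope proteins, and lipids are then attached to the outside. Most precursor genes lie side by side in the epidermal differentiation complex, and their expression normally accompanies the late steps of keratinocyte differentiation. The simple epithelia of the nephron form no such envelope.

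Of the 6 genes, 5 stood on chromosome 3 inside that complex, in GRCm38 coordinates from GENCODE M21. Lor lay at chr3:92080271-92083142, Sprr1a at chr3:92483952-92485895, Ivl at chr3:92570902-92573735, Lce1f at chr3:92718685-92720350 and Crct1 at chr3:93014205-93015687, and these 5 were on the minus strand. Sbsn lay apart on the plus strand of chromosome 7, at chr7:30751471-30756134. Promoter sequence, 250 bases before to 50 bases after the start, was matched by symbol for 4 of the 6 genes in RefSeq (GRCm38.p6). The windows were chr3:92083093-92083392 (minus) for Lor, chr3:92573686-92573985 (minus) for Ivl, chr3:92485832-92486131 (minus) for Sprr1a and chr7:30751221-30751520 (plus) for Sbsn. They are shown because 3 of these genes were higher and Ivl was lower in the same library, so that their starts can be read side by side. Capitals mark the AP-1 motif TGANTCA, the TATA box TATAAA and the C/EBP motif TTGCNNAA, each searched on both strands and in no case overlapping one another.
Lor: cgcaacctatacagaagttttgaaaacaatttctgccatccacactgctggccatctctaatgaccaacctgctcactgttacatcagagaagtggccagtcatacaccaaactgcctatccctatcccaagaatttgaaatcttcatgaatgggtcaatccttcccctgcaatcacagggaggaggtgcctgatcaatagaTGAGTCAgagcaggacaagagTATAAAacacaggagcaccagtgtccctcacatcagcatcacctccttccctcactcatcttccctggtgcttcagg
Ivl: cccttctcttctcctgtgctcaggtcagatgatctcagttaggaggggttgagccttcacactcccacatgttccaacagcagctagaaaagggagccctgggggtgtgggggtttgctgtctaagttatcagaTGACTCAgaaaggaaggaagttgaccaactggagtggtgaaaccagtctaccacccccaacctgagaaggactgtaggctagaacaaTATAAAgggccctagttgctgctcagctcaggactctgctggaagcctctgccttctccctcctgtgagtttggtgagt
Sprr1a: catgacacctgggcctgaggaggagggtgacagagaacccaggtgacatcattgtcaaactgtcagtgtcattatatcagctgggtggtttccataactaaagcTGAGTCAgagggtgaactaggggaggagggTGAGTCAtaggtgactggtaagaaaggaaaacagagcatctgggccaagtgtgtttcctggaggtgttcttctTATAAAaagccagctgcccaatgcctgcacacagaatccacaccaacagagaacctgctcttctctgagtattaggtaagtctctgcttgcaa
Sbsn: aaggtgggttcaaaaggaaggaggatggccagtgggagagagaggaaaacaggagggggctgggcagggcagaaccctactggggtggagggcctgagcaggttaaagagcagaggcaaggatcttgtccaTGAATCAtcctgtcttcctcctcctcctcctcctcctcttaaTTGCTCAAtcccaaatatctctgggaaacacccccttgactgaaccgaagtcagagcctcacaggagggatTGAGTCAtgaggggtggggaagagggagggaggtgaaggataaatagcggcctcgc
An AP-1 match was present in all 4 promoters, against 7.81% of the 32851 mouse promoters in the table. It began at base -48 from the start in Lor, at base -116 in Ivl, at bases -146 and -116 in Sprr1a and at bases -119 and -6 in Sbsn. The TATA box was found at base -27 in Lor, at base -29 in Ivl and at base -43 in Sprr1a, and 13.6% of all promoters hold it. All positions are counted from the RefSeq start. For Lor, Ivl and Sbsn this is also the GENCODE start, but for Sprr1a it lies downstream of the GENCODE start. The Sprr1a matches thus lie nearer to the GENCODE start than the positions printed. The C/EBP motif was found in Sbsn, at base -77, and in 10.8% of all promoters. Neither the Grainyhead motif AACNNGTT nor the GC box GGGCGG was found in the 4 windows, and 4.204% of all promoters hold the first and 35.7% the second. A match is a match of letters, and Ivl, which was lower with panobinostat, carried an AP-1 match and a TATA box too.

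In all, 104188927 unique molecular identifiers (UMIs) were counted in 2281 panobinostat cells and 90754967 in 2854 vehicle cells. Median depth per cell was 42394 UMIs with panobinostat and 27924 UMIs with vehicle, over a median of 6589 genes with panobinostat and 5492 genes with vehicle. No barcode occurred in both libraries. Levels are counts summed over the cells of a library and scaled to 1000000 UMIs (CPM). The 3′ method counts 1 tag per molecule, so levels were not divided by gene length. To be called, a gene needed 10 CPM in 1 library and a CPM ratio, panobinostat over vehicle, of 2-fold or more in either direction with an interval that left out a ratio of 1. Shares of cells were taken after each cell had been thinned to 18663 UMIs, which kept 2221 panobinostat cells and 2401 vehicle cells and left out 60 panobinostat cells and 453 vehicle cells as shallower. All 9 renal progenitor markers passed 10 CPM in at least 1 library, among them Pax2 with 24.9 CPM with panobinostat and 40.4 CPM with vehicle. Vcam1 passed only with vehicle, at 5.04 CPM with panobinostat and 14.7 CPM with vehicle. Vcam1 (log2 ratio -1.55) and Krt8 (-1.42) were called lower and Ncam1 (2.16) higher.

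Of the 6 envelope genes, 5 were called higher with panobinostat and 1, Ivl, was called lower. Among the 8872 genes past 10 CPM, 9.85% were called higher and 11% lower. The 6 genes had a median log2 ratio of 2.94, and the 8872 genes a median of -0.07. The genes were chosen with these ratios known, so the counts describe them and support nothing further. All 6 passed 10 CPM, but Lor and Lce1f did so only in the panobinostat library and Ivl only in the vehicle library. These 3 had to differ between libraries in order to pass.

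**Figure D1:**
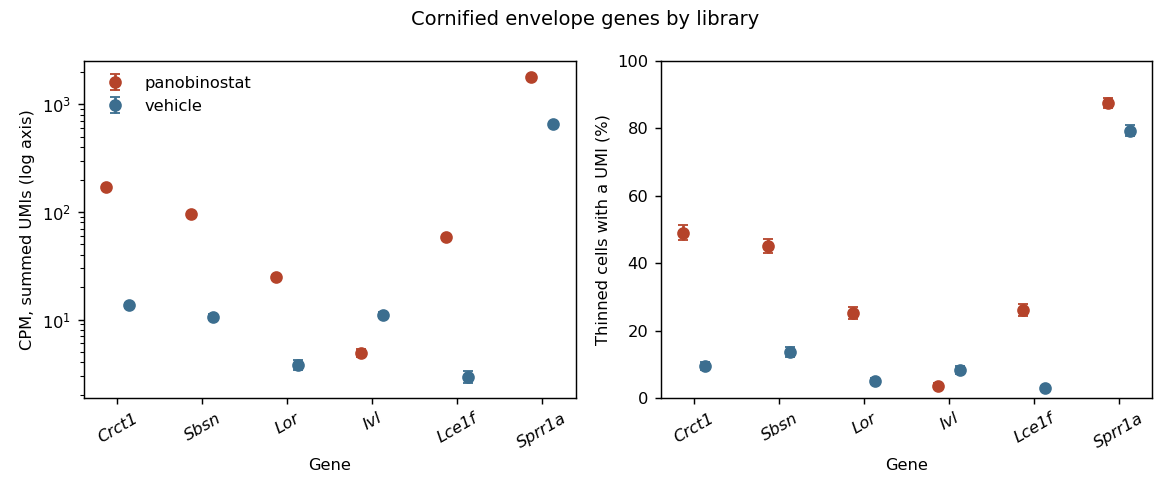
Level of each gene in CPM on a log axis (left) and percentage of thinned cells with at least 1 UMI (right), panobinostat left of vehicle for each gene. Bars are 95% counting intervals and each library is 1 sample. Ivl is the gene whose panobinostat point lies below its vehicle point, at 4.90 CPM with panobinostat and 10.9 CPM with vehicle.

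Lor encodes loricrin, the glycine-rich protein that makes up most of the mass of the epidermal envelope. It had 2596 UMIs with panobinostat and 345 UMIs with vehicle, which is 24.9 CPM with panobinostat and 3.801 CPM with vehicle. The panobinostat library was 6.55-fold higher (log2 ratio 2.71, interval 2.55 to 2.88). Most positive cells held little loricrin transcript: cells with a UMI carried a mean of 1.79 UMIs with panobinostat and 1.37 UMIs with vehicle after thinning. It was not evenly spread, as the 1% of thinned cells with the most Lor held 22.3% of its UMIs with panobinostat and 42.0% with vehicle. At least 10 UMIs were found in 9 thinned panobinostat cells and in 2 thinned vehicle cells.

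Ivl encodes involucrin, a scaffold protein that is cross-linked early under the plasma membrane. It had 511 UMIs (4.90 CPM) with panobinostat and 992 UMIs (10.9 CPM) with vehicle. The panobinostat library was lower, with a log2 ratio of -1.16 (interval -1.31 to -1.0007), which is 2.23-fold. Its vehicle level was only just above the 10 CPM that a call needs. The call was lost when CPM was averaged over cells instead of summed (log2 ratio -0.88), and when the 1% of cells of each library with the most Ivl UMIs were left out, because both libraries then fell under 10 CPM. The direction was the same in both.

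Sprr1a encodes a small proline-rich protein that bridges other precursors in the envelope and is also known from injured and stressed tissues. It had 188502 UMIs (1809 CPM) with panobinostat and 59691 UMIs (657.7 CPM) with vehicle, a 2.75-fold difference (log2 ratio 1.46, interval 1.45 to 1.47). Sprr1a alone made up 83.6% of the UMIs of the 6 genes with panobinostat and 94.03% with vehicle. It was present in most cells of both libraries.

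Lce1f is a member of the late cornified envelope family, whose proteins are laid down when the envelope is reinforced. It had 6087 UMIs (58.4 CPM) with panobinostat and 266 UMIs (2.93 CPM) with vehicle. The log2 ratio was 4.32 (interval 4.14 to 4.50), a 19.9-fold difference and the largest among the 6 genes. Of the sequence words of 31 bases in the last 400 bases of its transcripts, 14.4% also occur in other genes, most of them in Lce1a1. The sources used here do not say how reads from such shared stretches were counted. Lce1a1 itself had 25 UMIs with panobinostat and 1 UMI with vehicle. Without the 1% of cells of each library with the most Lce1f UMIs its log2 ratio was 5.01. That 1% held 27.0% of its UMIs with panobinostat and 54.9% with vehicle, so leaving it out had to raise the ratio.

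Crct1 lies among the late cornified envelope genes and encodes a small cysteine-rich protein. It had 17915 UMIs (171.9 CPM) with panobinostat and 1229 UMIs (13.5 CPM) with vehicle, a 12.7-fold difference (log2 ratio 3.67, interval 3.58 to 3.75). In the vehicle library few cells held much of it: the 1% of thinned cells with the most Crct1 had 18.3% of its UMIs with panobinostat and 48.7% with vehicle. Without that 1% of unthinned cells in each library the log2 ratio was 4.53. In unthinned cells the 1% held 18.4% with panobinostat and 55.2% with vehicle, so leaving it out had to raise the ratio.

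Sbsn encodes suprabasin, a transglutaminase substrate of the suprabasal layers of stratified epithelia. It had 9939 UMIs (95.4 CPM) with panobinostat and 960 UMIs (10.6 CPM) with vehicle. The log2 ratio was 3.17 (interval 3.08 to 3.27), a 9.02-fold difference. Of the words of 31 bases at its transcripts' ends, 32.1% also occur in the overlapping gene Tmem147os, which had 36 UMIs with panobinostat and 52 UMIs with vehicle, so few reads were assigned to the partner. No word was shared with another gene for Crct1, Lor, Ivl or Sprr1a.

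The share of cells with a UMI followed the levels. Crct1 was seen in 49.1% of thinned panobinostat cells (47.0 to 51.2%) and in 9.45% of thinned vehicle cells (8.31 to 10.7%). Sbsn was seen in 44.98% of panobinostat cells (42.9 to 47.1%) and in 13.6% of vehicle cells (12.2 to 15.01%). For both genes the share was several times higher in panobinostat cells.

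Lor was seen in 25.2% of thinned panobinostat cells (23.4 to 27.1%) and in 5.12% of vehicle cells (4.28 to 6.08%). Lce1f was seen in 26.1% of panobinostat cells (24.3 to 27.99%) and in 2.87% of vehicle cells (2.24 to 3.62%). Ivl ran the other way, with 3.69% of panobinostat cells (2.95 to 4.56%) and 8.33% of vehicle cells (7.26 to 9.51%). Sprr1a was seen in 87.6% of panobinostat cells (86.2 to 88.96%) and in 79.3% of vehicle cells (77.7 to 80.9%). In no case did the intervals of the 2 libraries overlap. Without thinning the panobinostat shares were 61.0% for Crct1, 64.3% for Sbsn, 44.3% for Lor, 35.3% for Lce1f, 6.88% for Ivl and 92.7% for Sprr1a. The unthinned vehicle shares were 13.5% for Crct1, 18.99% for Sbsn, 8.44% for Lor, 4.41% for Lce1f, 11.7% for Ivl and 82.7% for Sprr1a.

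The amount per positive cell differed as well as the number of positive cells. Thinned cells with a Crct1 UMI carried a mean of 5.94 UMIs with panobinostat and 2.24 UMIs with vehicle. Cells with 10 or more Crct1 UMIs numbered 187 (8.42%) with panobinostat and 8 (0.333%) with vehicle. For Sbsn the means were 4.11 UMIs with panobinostat and 1.59 UMIs with vehicle, and for Lce1f 3.70 UMIs with panobinostat and 1.68 UMIs with vehicle. Lce1f reached 10 UMIs in 50 panobinostat cells and in 0 vehicle cells.

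Sprr1a showed the widest range of any of the 6 genes. Positive cells carried a mean of 36.4 UMIs with panobinostat and 14.8 UMIs with vehicle, and the highest single cell held 554 UMIs with panobinostat and 260 UMIs with vehicle. Thus the share of Sprr1a-positive cells was only modestly higher with panobinostat, while the share of cells with 10 or more UMIs was 57.4% with panobinostat and 32.4% with vehicle. Ivl was seen in few thinned cells, 82 with panobinostat and 200 with vehicle. The 1% of cells with the most Ivl held 66.8% of its UMIs with panobinostat and 54.9% with vehicle. That 1% was 23 panobinostat cells and 25 vehicle cells, so any gene seen in few cells has a large share there. With vehicle the share was 62.1% for Lce1f, 48.7% for Crct1 and 42.0% for Lor. A positive Ivl cell carried nearly as many UMIs in both libraries, 2.46 on average with panobinostat and 2.54 with vehicle. The lower Ivl level went with fewer positive cells. The median positive cell held 1 Ivl UMI in either library, so less transcript in each cell cannot be told apart from fewer expressing cells.

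**Figure D2:**
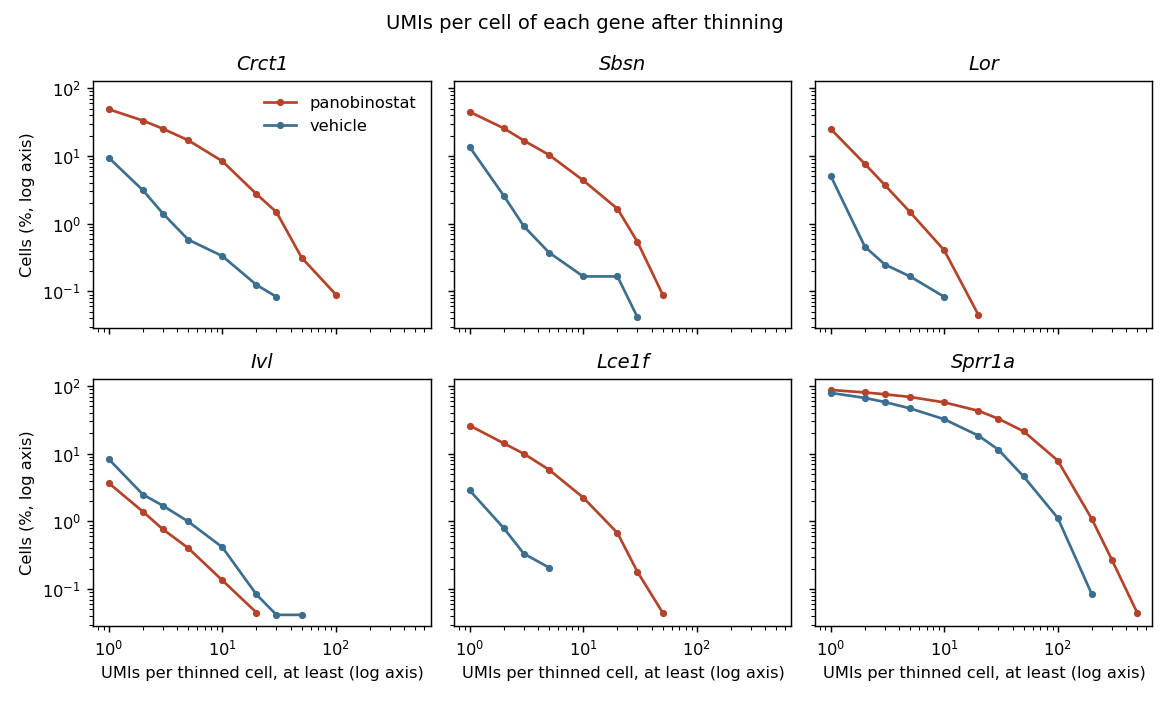
Percentage of thinned cells (log axis) with at least the number of UMIs on the horizontal axis (log axis), for each gene, panobinostat in red and vehicle in blue. The panobinostat curve lies above the vehicle curve for 5 genes, with 8.42% and 0.333% of cells at 10 or more Crct1 UMIs, and below it for Ivl.

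UMIs of several of these genes were often seen under the same cell barcode. No background share from free RNA was measured, and its part in these shares was not tested. At least 3 of the 6 genes were seen in 996 of 2221 thinned panobinostat cells (44.8%, interval 42.8 to 46.9%) and in 121 of 2401 thinned vehicle cells (5.04%, interval 4.199 to 5.99%). At least 4 were seen in 14.5% of panobinostat cells and in 0.750% of vehicle cells. All 6 were seen together in 3 panobinostat cells and in 0 vehicle cells, where a count of 0 leaves room for up to 0.154%. None of the 6 was seen in 77 panobinostat cells (3.47%) and in 343 vehicle cells (14.3%). With Sprr1a left aside, 82.7% of panobinostat cells and 32.6% of vehicle cells had a UMI of at least 1 of the other 5, and 15.6% of panobinostat cells and 0.916% of vehicle cells had 3 or more of them. Counting only genes with 2 or more UMIs in a cell, 3 or more of the 6 were seen in 18.4% of panobinostat cells and in 0.666% of vehicle cells.

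The genes' separate shares, multiplied as if each gene fell on cells independently, gave most of these numbers. For 3 or more genes the product was 43.6% with panobinostat, within the interval of the share seen, and 4.11% with vehicle, just below it. For 4 or more it was 12.8% with panobinostat and 0.296% with vehicle, below the intervals of the shares seen in both libraries (13.1 to 16.1% with panobinostat and 0.445 to 1.18% with vehicle). Cells with most of the 6 genes were thus somewhat more frequent than the product, and with vehicle they numbered 18. Among the 15 pairs of genes, the number of cells with both exceeded the product for 11 pairs with panobinostat (ratios 0.73 to 1.60, median 1.05) and for 12 pairs with vehicle (0.92 to 1.98, median 1.14).

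**Figure D3:**
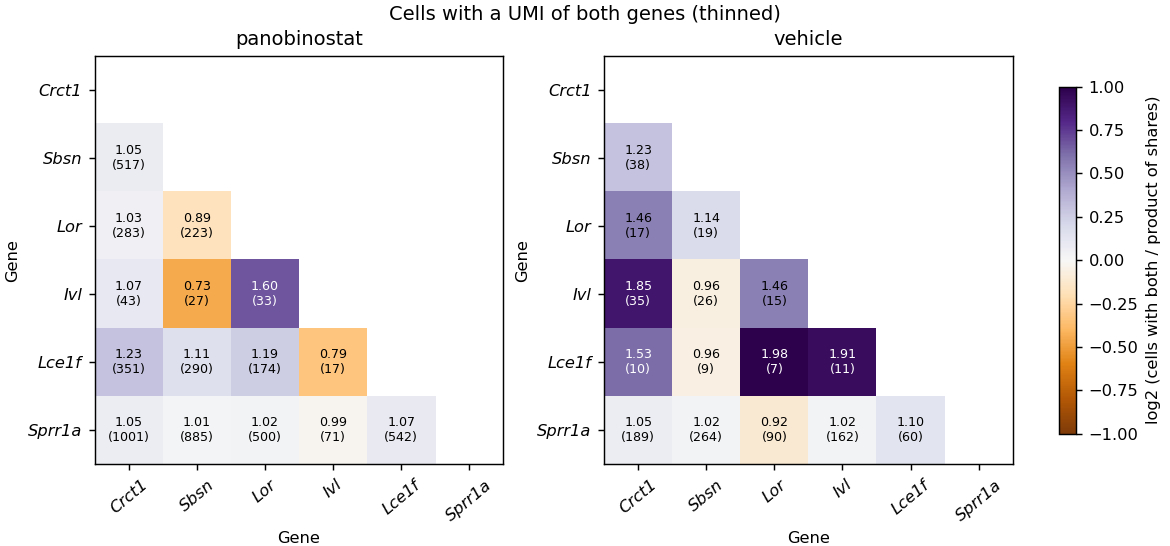
Cells with a UMI of both genes of each pair divided by the number the product of their shares gives, with the number of cells in brackets, for thinned panobinostat cells (left) and thinned vehicle cells (right). Purple marks ratios over 1 and orange ratios under 1 on a log2 colour scale. Crct1 with Lce1f stands at 1.23 in 351 panobinostat cells, and Sbsn with Ivl at 0.73 in 27.

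The share of cells with the second gene of a pair, set between cells with and without the first, had intervals that lay apart for 7 of the 15 pairs with panobinostat and for 1 with vehicle. Of the 7, 6 were over the product and 1, Sbsn with Lor, was under it. Crct1 and Lce1f, both inside the complex, were seen together in 351 panobinostat cells where the product gives 284.9. Lce1f was seen in 32.2% of panobinostat cells with Crct1 (29.4 to 35.04%) and in 20.3% of those without it (17.96 to 22.7%). The ratio was over 1 in each of the 6 panobinostat clusters described below, from 1.11 to 1.40. In vehicle cells the pair was seen in 10 cells where the product gives 6.52, too few to read.

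Lor and Ivl were together in 33 panobinostat cells where the product gives 20.7. These cells lay in panobinostat cluster 0 (7 cells, ratio 1.52) and cluster 1 (26 cells, ratio 1.33). Within each of these clusters the ratio was below the 1.60 of the whole library. Ivl was seen in 5.89% of panobinostat cells with Lor (4.09 to 8.18%) and in 2.95% of those without it (2.19 to 3.88%). Lce1f was in 31.1% of panobinostat cells with Lor (27.3 to 35.1%) and in 24.4% of those without it (22.4 to 26.6%). Sprr1a was in 91.8% of panobinostat cells with Crct1 (89.96 to 93.3%) and in 83.6% of those without it (81.3 to 85.7%). It was in 93.4% of panobinostat cells with Lce1f (91.1 to 95.3%) and in 85.6% of those without it (83.8 to 87.2%).

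Sbsn had no single direction. Lor was in 22.3% of panobinostat cells with Sbsn (19.8 to 25.03%) and in 27.6% of those without it (25.1 to 30.2%), in 223 cells where the product gives 251.9. By panobinostat cluster the ratio of this pair ran from 0.85 to 1.07, and it was over 1 in clusters 2 and 3. Lce1f was in 29.03% of panobinostat cells with Sbsn (26.23 to 31.95%) and in 23.7% of those without it (21.4 to 26.22%), in 290 cells where the product gives 260.9. Sbsn with Crct1 was seen in 517 cells where the product gives 490.7, and with Ivl in 27 where it gives 36.9, and for both the intervals overlapped. In vehicle cells the pair with intervals apart was Crct1 with Ivl, seen in 35 cells where the product gives 18.9. Ivl was seen in 15.4% of vehicle cells with Crct1 (10.98 to 20.8%) and in 7.59% of those without it (6.51 to 8.78%). In panobinostat cells Crct1 with Ivl stood at 1.07 times the product, in 43 cells. Depth was equal in all these cells by thinning, and cells of 1 library are not replicates.

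The 6 genes were not spread evenly over the cells of a library. Each library was clustered on its own without them, which gave 6 clusters in each. The clusters are referred to by number and leading genes, and numbers in the 2 libraries do not correspond.

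Relative to the level of the whole panobinostat library, Sbsn had the highest peak in any cluster among the 6 genes. It stood at 361.4 CPM and in 77.4% of cells of cluster 2 (252 cells, led by Pdpn and Vgf). In the other 5 panobinostat clusters it lay between 33.8 and 94.1 CPM. Among vehicle clusters its highest level was 16.7 CPM, in cluster 2 (514 cells, led by Vim and Col4a1), and its highest share 18.1%, in cluster 0. Each panobinostat cluster lay above both.

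Ivl was held mostly by panobinostat cluster 1 (657 cells, led by Kitl, Gata3, Pmp22 and Clu), at 14.3 CPM and in 61 of 635 thinned cells (9.61%). It was in 0 of 243 thinned cells of panobinostat cluster 2, an upper limit of 1.51%, and in 0 of 152 of cluster 3. With vehicle it was highest in cluster 4 (430 cells, led by Clu and Ltc4s), at 32.2 CPM and in 17.3% of cells, and lowest in cluster 2, at 0.641 CPM and in 1.44% of cells. Across the panobinostat clusters Ivl thus ran from 0.0983 to 14.3 CPM. The part of free RNA in the low shares was not tested. Gata3, a leading gene of the cluster with most Ivl, split the panobinostat cells the same way. Ivl was in 8.08% of cells with a Gata3 UMI and in 2.43% of cells without one, whereas Lce1f was in 14.3% of cells with Gata3 and in 29.5% of cells without.

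Lce1f was lowest in panobinostat cluster 1, where Ivl was highest, at 25.7 CPM and in 12.6% of cells. It reached 151.9 CPM in cluster 4 (99 cells, led by Acta1, Igfbp2 and Acta2), and it was in 51.3% of cells of cluster 3 (154 cells, led by Tagln and Uts2b). The leading genes Tagln, Acta1 and Acta2 encode proteins of the contractile cytoskeleton. Lce1f was also high in panobinostat cluster 5 (77 cells, led by Pltp and Evpl), at 120.6 CPM and in 48.6% of cells. Among vehicle clusters its share ran from 0.680% in cluster 3 to 4.84% in cluster 0, below that of each panobinostat cluster.

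Crct1 ranged from 75.1 CPM in panobinostat cluster 2 to 238.7 CPM in cluster 3, and its share from 29.6 to 63.2% in the same clusters. In the vehicle library its highest share was 17.0%, in cluster 0 (659 cells, led by Lcn2 and Col5a2). With panobinostat Lor ranged from 11.2 CPM in cluster 3 to 34.5 CPM in cluster 1, and its share from 9.46% in cluster 5 to 32.1% in cluster 1. It stood at 10.2 CPM in vehicle cluster 4. Lor and Ivl were highest in the same cluster of each library, by level and by share. Sprr1a was in 73.0 to 94.7% of cells of each panobinostat cluster and in 71.7 to 85.7% of cells of each vehicle cluster. Its level ran from 797.4 CPM (cluster 5, led by Pltp and Evpl) to 2350 CPM (cluster 4) with panobinostat, and from 391.9 CPM (cluster 3) to 1485 CPM (cluster 5, led by Cnn1 and Acta2) with vehicle.

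**Figure D4:**
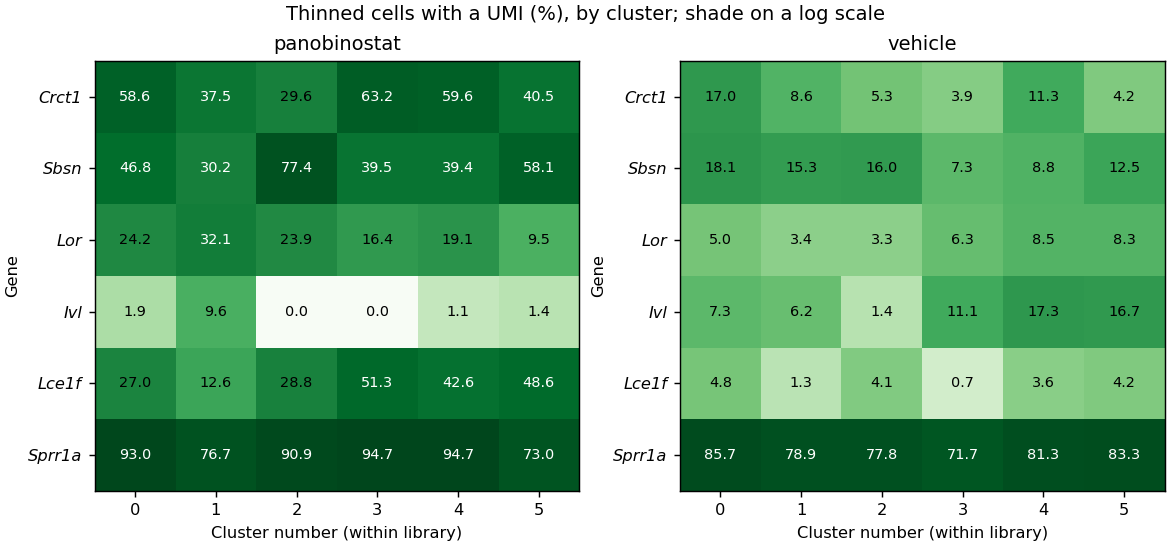
Percentage of thinned cells with at least 1 UMI of each gene (rows) in each cluster (columns), panobinostat left and vehicle right, shaded on a log scale. Clusters were made within each library without the 6 genes, and a column number on the left is unrelated to the same number on the right. Sbsn reaches 77.4% in panobinostat cluster 2, where Ivl is at 0.

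Cell cycle phase, scored from S and G2/M genes, differed between the libraries. Of the thinned cells, 2205 of 2221 with panobinostat and 829 of 2401 with vehicle were called G1. Within the vehicle library all 6 genes had their highest CPM in G1 cells: Sprr1a stood at 964.5 CPM in G1, 508.9 CPM in S and 413.8 CPM in G2/M cells. Lce1f was in 5.07% of G1, 2.27% of S and 1.32% of G2/M vehicle cells, and Ivl stood at 19.6 CPM in G1, 8.499 CPM in S and 5.83 CPM in G2/M cells. Crct1 was in 14.4% of G1 vehicle cells, 8.16% of S cells and 5.93% of G2/M cells.

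The values that follow come from unthinned G1 cells, so they differ from the thinned levels above. When these G1 cells alone were compared, Crct1 had a log2 ratio of 3.39, Sbsn 2.93, Lor 2.06 and Lce1f 3.38, all still called higher. Lce1f then stood at 58.5 CPM with panobinostat and 5.62 CPM with vehicle. Sprr1a was no longer called, with 1809 CPM with panobinostat and 987.8 CPM with vehicle (log2 ratio 0.87). Ivl was further apart, at 4.91 CPM with panobinostat and 16.1 CPM with vehicle (log2 ratio -1.71). Phase calls can carry free RNA, and its part in them was not tested.

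Most other measured genes of the epidermal differentiation complex that passed 10 CPM did not reach a 2-fold difference. The complex, taken from S100a1 to S100a10, spans chr3:90511034-93564643 and has 75 protein-coding genes in GENCODE M21, of which 54 had a row. Without the 5 envelope genes described here 49 remained, and 14 of them passed 10 CPM. Of the 14, 3 were called higher and 1 lower, with a median log2 ratio of 0.60. Among all 8872 genes past 10 CPM, 9.85% were called higher and 11% lower. With no floor on level, 19 of the 49 were called higher and 5 lower, where 21.3% of all 19394 genes were higher and 9.57% lower. Of the 17 late cornified envelope genes among the 49, 11 were called higher and 1 lower with no floor, many on few UMIs.

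**Figure D5:**
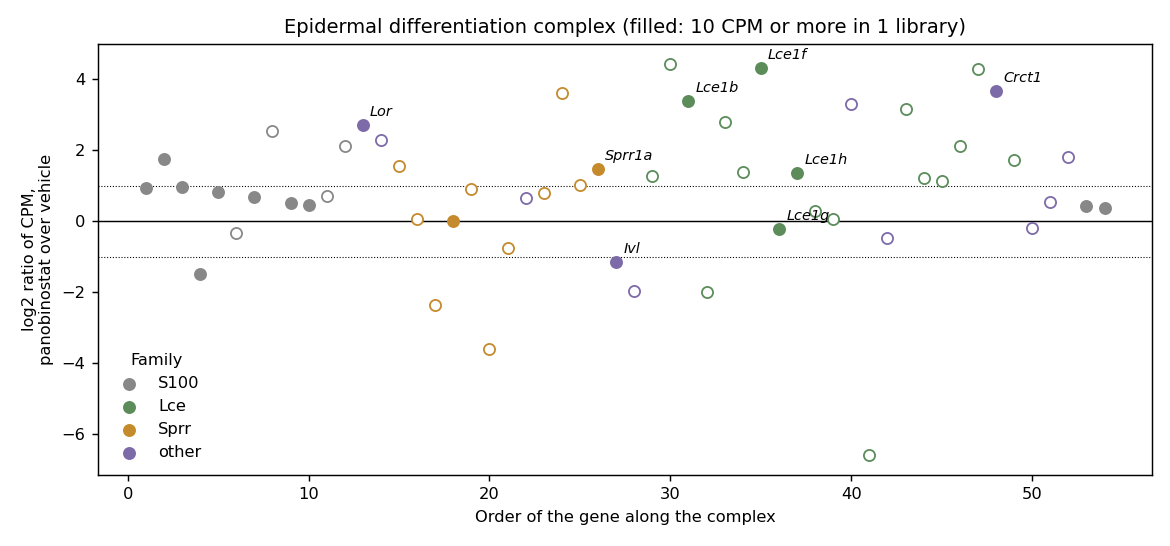
Log2 ratio of CPM, panobinostat over vehicle, for the 54 measured genes of the epidermal differentiation complex in chromosomal order, coloured by family. Filled points reached 10 CPM in 1 library, open points did not, and dotted lines mark 2-fold. Lce1f is highest among the filled points at 4.32, and Lce1g, the next gene, is at -0.21.

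The S100 genes, which encode small calcium-binding proteins, form the edges of the complex. Of 14 with a row, 10 passed 10 CPM, with S100a13 called higher (log2 ratio 1.77) and S100a16 called lower (-1.48). The remaining 8 had log2 ratios under 1: S100a14 0.98, S100a1 0.95, S100a3 0.84, S100a4 0.69, S100a6 0.51, S100a7a 0.45, S100a11 0.42 and S100a10 0.37. Sprr2f, the other small proline-rich gene past 10 CPM, had 15.7 CPM with panobinostat and 15.6 CPM with vehicle. Its UMIs lay almost wholly in the 1% of thinned cells with the most, 91.7% of them with panobinostat and 91.2% with vehicle.

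The late cornified envelope genes Lce1b, Lce1g and Lce1h also passed 10 CPM, and their ratios differed. Lce1b had 12.4 CPM with panobinostat and 1.19 CPM with vehicle (log2 ratio 3.38). Lce1h, at chr3:92763215-92765065, had 209.4 CPM with panobinostat and 80.8 CPM with vehicle (1.37). Lce1g lies between Lce1f and Lce1h, at chr3:92750148-92752338, and had 61.9 CPM with panobinostat and 71.4 CPM with vehicle (-0.21). Lce1g was seen in 16.9% of thinned panobinostat cells and in 17.95% of thinned vehicle cells, so the neighbour of the gene with the largest ratio was at nearly the same level in both libraries. Of the words of 31 bases at the transcripts' ends, Lce1b shared 50.5%, Lce1h 33.0% and Lce1g 11.4% with other genes, so their values are uncertain to that extent.

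Within a library these 3 neighbours were nevertheless found in the same cells. Lce1h was seen in 65.0% of panobinostat cells with Lce1f (60.96 to 68.9%) and in 29.8% of those without it (27.6 to 32.1%). With vehicle the shares were 62.3% (49.8 to 73.7%) and 21.4% (19.7 to 23.1%). Lce1g was in 34.3% of panobinostat cells with Lce1f (30.4 to 38.3%) and in 10.8% of those without (9.33 to 12.4%). Among the 10996 genes seen in at least 5% of panobinostat cells, Lce1h had the highest correlation with Lce1f over 2221 cells (r = 0.49) and Lce1g the next (0.36). Of the end words of Lce1f, 0.880% occur in Lce1h and 9.68% in Lce1g.

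The other genes had weaker company. In panobinostat cells Crct1 correlated most with Csf1, Rras2 and Thbs1 (r of 0.24 to 0.25), and Sbsn with the galectin gene Lgals3, Plat and Cryab (0.27 to 0.29). Sprr1a correlated most with the small heat shock protein gene Cryab, Spns2 and Fst in panobinostat cells (0.31 to 0.32), and with the fibronectin gene Fn1, Tmsb4x and Itgb1 in vehicle cells (0.24 to 0.30). The third gene for Lce1f was Timp3 (0.28). No gene reached 0.2 with Lor in either library. Crct1, Sbsn and Ivl had none in vehicle cells, where the highest for Crct1 was 0.1999, with Lce1h. In sparse counts correlations of this size are no finding, and the cells of a library share their depth and handling.

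The wider envelope programme was largely low or did not differ by 2-fold. Of 50 further precursor genes 34 had a row and 6 passed 10 CPM, with Lce1b and Lce1h called higher and none lower (median log2 ratio 0.08). The plakin genes Evpl and Ppl, whose products form the first scaffold of the envelope, had log2 ratios of 0.14 and -0.08. With no floor on level, 18 of the 34 were called higher and 3 lower, where 21.3% of all 19394 genes were higher and 9.57% lower. Most of these rest on few UMIs. Among them were Cdsn (corneodesmosin), with 294 UMIs with panobinostat and 13 with vehicle, and Dmkn (dermokine), with 239 UMIs with panobinostat and 32 with vehicle. Both were picked out after their values were seen.

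Of 17 enzymes that cross-link the envelope, make its lipid or process its proteins, 15 had a row and 2 passed 10 CPM. Sult2b1, the cholesterol sulfotransferase of epidermis, was called higher, with 48.1 CPM with panobinostat and 22.1 CPM with vehicle (log2 ratio 1.12). St14, the protease matriptase, was not called (-0.97). Tgm1, the main transglutaminase of the envelope, had 9.06 CPM with panobinostat and 8.32 CPM with vehicle, and Tgm3 had 5 UMIs with panobinostat and 1 with vehicle. Of 12 desmosome genes 7 passed, with Pkp3 (plakophilin 3) called lower (-1.20) and none higher. Their median was -0.45, and Perp stood highest at 0.54.

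Among 28 transcription factors of keratinocyte differentiation 16 passed 10 CPM, 5 were called higher and 1 lower. Of these 5, 4 encode subunits of AP-1, namely Fos, Jun, Jund and Fosb. The AP-1 genes Fosl1 (log2 ratio -0.97), Fosl2 (0.09) and Junb (0.42) also passed 10 CPM and were not called. Fos had 316.2 CPM with panobinostat and 32.2 CPM with vehicle (log2 ratio 3.30). Jun had 193.7 CPM with panobinostat and 72.5 CPM with vehicle (1.42), Jund had 1011 CPM with panobinostat and 454.2 CPM with vehicle (1.15), and Fosb had a log2 ratio of 1.501. Ahr, a ligand-activated receptor known to speed barrier formation, was the fifth (1.11). Grhl2, a Grainyhead factor of epithelial identity, was lower, with 9.07 CPM with panobinostat and 23.8 CPM with vehicle (-1.39). Klf4, which drives barrier formation in skin, had a log2 ratio of -0.13 and was not called.

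No keratin among the basal and suprabasal keratinocyte markers reached 10 CPM, and some were near 0. Krt14 had 8 UMIs with panobinostat and 11 with vehicle, and Krt1 had 3 with panobinostat and 4 with vehicle. Krt10, the suprabasal partner of Krt1, had 531 UMIs (5.10 CPM, 438 cells) with panobinostat and 466 UMIs (5.13 CPM, 411 cells) with vehicle. Krt5 had 601 UMIs (5.77 CPM, 384 cells) with panobinostat and 31 UMIs (0.342 CPM, 11 cells) with vehicle, and Trp63, the factor that defines stratified epithelium, had 115 UMIs with panobinostat and 22 with vehicle. Other basal markers ran the other way. Dsg3 had 5 UMIs with panobinostat and 73 with vehicle, and Col17a1 had 12 with panobinostat and 58 with vehicle. The 8 basal markers summed to 204.6 CPM with panobinostat and 188.5 CPM with vehicle, nearly all from the integrins Itga6 and Itgb4, and 0 of 8 were called. The 7 suprabasal markers with a row summed to 14.5 CPM with panobinostat and 13.5 CPM with vehicle, and none of them passed 10 CPM.

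Keratins of mucosa and wounded epithelium were lower. Of 8 listed, 4 had a row, and the 2 past 10 CPM, Krt17 (-1.01) and Krt80 (-1.74), were both called lower. The 4 summed to 60.8 CPM with panobinostat and 131.5 CPM with vehicle. The simple epithelial keratins were the main keratins of either library, at a summed 6233 CPM with panobinostat and 10698 CPM with vehicle, with Krt8 called lower (-1.42) among 5. Urothelial markers summed to 336.3 CPM with panobinostat and 256.4 CPM with vehicle, and neither of the 2 past 10 CPM was called. Most of that was Krt20, also counted among the simple keratins, at 301.4 CPM with panobinostat and 226.0 CPM with vehicle. The defining uroplakins Upk2 and Upk3a had 113 and 48 UMIs with panobinostat and 10 and 0 UMIs with vehicle. Tubule markers summed to 68.95 CPM with panobinostat and 10.3 CPM with vehicle, mostly from Cldn16. The 2 past 10 CPM, Cldn16 (2.55) and Lrp2 (4.17), were both called higher. Lrp2 had 11.7 CPM with panobinostat and 0.650 CPM with vehicle. The 6 podocyte markers summed to 24.4 CPM with panobinostat and 12.8 CPM with vehicle. Synpo, the 1 past 10 CPM, was called higher (1.01). Wt1 had 55 UMIs with panobinostat and 0 with vehicle, and Nphs1 had 36 with panobinostat and 25 with vehicle. The 8 immune, endothelial and mesangial markers summed to 72.9 CPM with panobinostat and 7.54 CPM with vehicle. Most of that was Cd68, the 1 marker of these past 10 CPM, which was called higher (3.995). Ptprc, which marks all leukocytes, had 206 UMIs with panobinostat and 55 with vehicle. The part of other cell types in the envelope transcripts was not tested.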

How the data were processed

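Per the labels' protocols, the 3′ libraries were 10x Chromium libraries, read on a NextSeq500. Cell Ranger 3.0.1 and the build mm10 are named in the submitters' processing notes. The deposited matrix holds raw UMI counts, with no normalization by the authors, for 19394 genes and 5135 cells, and the ending of a cell's barcode names its treatment. No deposited cell had fewer than 1798 genes or more than 9.98% mitochondrial counts, and no gene was in fewer than 3 cells, so filtering preceded deposit. Symbols were matched to GENCODE M21 (98.8% found).

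The members and gene lists were chosen with earlier results of these data known. CPM was computed from counts summed per library, with exact conditional binomial (Clopper-Pearson) 95% intervals for ratios and exact binomial intervals for shares. A gene at 0 was set at 3 counts, which equal 0.0288 CPM with panobinostat and 0.0331 CPM with vehicle. UMIs of 1 library are not independent samples, so no p-value was computed. Clusters came from counts scaled to 10000 per cell, 2000 variable genes, 30 principal components, 15 neighbours and leidenalg 0.10.2 at resolution 0.5, with phases from scanpy 1.11.5. Scrublet called 14 of 5135 cells (0.273%), too few for the caller to have worked, so doublets may remain. Named are the 6 genes, up to 6 genes per list with the largest log2 ratio past 10 CPM, defining markers near 0, genes of the complex past 10 CPM, and the 3 most correlated genes with r of at least 0.2. Alternatives used edgeR 4.0.16 (TMM), DESeq2 1.42.0, other floors, folds, depths and choices of cells. The calling rule was run on simulated counts that carried counting error only. Those counts held no spread between cells or samples, so the run cannot show how the rule fares with such spread. Calculations used Python 3.11.15, scipy 1.17.1 and R 4.3.3.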

Additional observations from a re-analysis of the deposited data

How the results depend on the processing

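Of 101 alternative values, 96 kept their direction and their side of the threshold or moved little, 4 lost the call in the same direction, 1 moved, and 0 reversed. The log2 ratio of Ivl was -0.88 as a mean over cells of CPM and -1.48 without the 1% of cells with the most Ivl, where both libraries were under 10 CPM (2.02 with panobinostat, 5.65 with vehicle); that setting was chosen after seeing the data. The share of cells with 2 or more Ivl UMIs differed by -1.10 percentage points, with overlapping intervals. Sprr1a had a log2 ratio of 0.87 in G1 cells. Of 12 gene and library pairs, 7 had a cluster at 2 or more times the library's CPM, and 11 did at resolution 1.0, where there were 12 panobinostat and 10 vehicle clusters. Between 4 and 5 of the 6 genes were called higher under every setting of scaling, floor, fold and cells that was run. TMM and DESeq2 factors moved the median gene to -0.18 and -0.19, from -0.07. Calls over all genes were 874 higher and 973 lower, against 781 and 617 in G1 cells, 2344 and 1448 at a floor of 1 CPM, 4125 and 1856 with no floor, 295 and 369 at a floor of 50 CPM, 1708 and 2059 at 1.5-fold, and 317 and 250 at 4-fold. No paired analysis was possible because each group has 1 library and no test was run, and no replicate could be left out. Depth limits the vehicle shares: the median positive vehicle cell held 1 UMI of Crct1, Sbsn, Lor, Ivl or Lce1f, and 6 UMIs of Sprr1a.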
